A study of Mus musculus with 8 samples.

Results

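Granzymes are the serine proteases that cytotoxic T cells store in granules and deliver into a target cell through pores made by perforin. They are made as inactive precursors, are activated by removal of a short leading peptide, and cleave target proteins at different residues. Granzyme B cleaves after aspartate and starts caspase-dependent death, granzyme A cleaves after basic residues, and granzyme M after methionine or leucine. In the mouse, Gzmb lies in a cluster on chromosome 14 with Gzmc, Gzmd, Gzme, Gzmf, Gzmg and Gzmn, Gzma and Gzmk lie on chromosome 13, and Gzmm lies on chromosome 10.

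The mouse granzyme genes Gzma to Gzmg, Gzmk and Gzmm were described here on arrays of activated CD8 T cells. Members were taken by gene symbol, as every probe set whose platform annotation named 1 symbol of the family. The family was chosen from measured values, since earlier results of these arrays had shown several granzymes low in 1 mouse, so levels by mouse are a description with no test. All 9 genes had a probe set, Gzmd had 2 and the others 1 each, which gave 10 of the 22626 probe sets that were not controls. Their identifiers are 1417898_a_at for Gzma, 1419060_at for Gzmb, 1421256_at for Gzmc, 1420343_at and 1420344_x_at for Gzmd, 1450171_x_at for Gzme, 1418679_at for Gzmf, 1422867_at for Gzmg, 1422280_at for Gzmk and 1449501_a_at for Gzmm. A further probe set, annotated to both Gzme and Gzmd, was no member and is given beside them.

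The T cells came from OT-1 mice, whose CD8 T cells carry a transgenic receptor for an ovalbumin peptide. Activated cells of mice A, B, C and D were each divided and met peptide-loaded ID8 cells, a mouse ovarian cancer line, for 4 h at 30 T cells per target cell. The ID8 cells either overexpressed PD-L1, which binds PD-1 on T cells and restrains them, or were depleted of it, and the T cells were then recovered magnetically. That gave 4 arrays per group and no sample without targets, and the age and sex of the mice and the means of altering PD-L1 were not given in the sources used here. All values below are deposited log2 expression values of 1 probe set on 1 array, and differences between targets are PD-L1-overexpressing minus PD-L1-depleted. Levels of different probe sets were not read as relative amounts of RNA, since probes differ in brightness. Where a reading is called high or low, its place on the scale of the arrays is meant.

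The labelled cell type was checked first. All 6 CD8 T cell markers on the list (Cd3d, Cd3e, Cd3g, Cd247, Cd8a and Cd8b1) were well measured, with a list mean of 12.33 to 12.47 with PD-L1-overexpressing and 12.29 to 12.47 with PD-L1-depleted targets. Both NK cell markers on the array, Ncr1 and Klra8, lay under 6.87, the 40th percentile of all probe set means, as did all 5 mast cell and basophil markers and all 5 neutrophil markers measured. So did 4 of 4 B cell, 4 of 5 macrophage and dendritic cell and 2 of 3 CD4 T cell markers, but Csf1r and Cd4 themselves had means of 8.18 and 8.14, and the part of such cells in the values was not tested. NK cells, mast cells and neutrophils are the other cells known for proteases of this kind. The list mean of 10 ID8 tumour markers ran from 7.38 to 8.20 with PD-L1-overexpressing and from 7.20 to 8.18 with PD-L1-depleted targets, and it differed between targets by 0.58, 0.49 and 0.55 in mice A, C and D but by -0.81 in mouse B.

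The first comparison asked whether PD-L1 on the target cell was followed by a different granzyme level in the T cell after 4 h. No granzyme passed the test. Gzmb, which carries most of the caspase-activating activity of mouse cytotoxic T cells, read 14.55, 14.62, 14.69 and 14.64 in mice A, B, C and D facing PD-L1-overexpressing targets, against 14.57, 14.60, 14.70 and 14.68 with PD-L1-depleted targets. The groups overlapped over nearly their whole range, and the difference was -0.011 (SE 0.017, 95% interval -0.049 to 0.027). Its highest value lay 0.54 under the highest value on any array, 15.24, where a difference may be compressed. Gzma, a tryptase, read 8.56, 12.03, 10.95 and 10.71 with PD-L1-overexpressing targets, against 8.67, 12.10, 10.94 and 10.58 with PD-L1-depleted targets, in the same order of mice. It was lower in mice A and B and higher in C and D, with a difference of -0.011 (SE 0.042, 95% interval -0.106 to 0.084).

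Gzmc, a granzyme of strongly activated mouse T cells, was the other highly read member. It stood at 13.70, 13.93, 14.20 and 14.04 with PD-L1-overexpressing targets, against 13.60, 13.98, 14.13 and 14.05 with PD-L1-depleted targets. The difference of 0.025 (SE 0.027) was positive in mice A and C and negative in B and D. The 2 Gzmd probe sets differed by -0.040 (SE 0.039) and -0.056 (SE 0.034), and both were lower in mice A, B and C and higher in D. Gzmf differed by -0.052 (SE 0.045) and was lower with PD-L1-overexpressing targets in all 4 mice, by 0.014 to 0.096. Among the 10 probe sets it alone kept 1 direction in every mouse, and over all probe sets 11.9% did so. Gzme and Gzmg, the others of the cluster, differed by -0.0041 (SE 0.044) and 0.00050 (SE 0.069). The mouse values of Gzmg were -0.28 in mouse A and 0.15, 0.063 and 0.065 in B, C and D, so a mean near 0 stood for unlike directions.

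Gzmk, a granzyme of memory and less differentiated T cells, and Gzmm, known from NK cells and innate-like T cells, were the members with low readings. Gzmk read 6.17, 6.48, 6.64 and 6.34 with PD-L1-overexpressing targets, against 6.48, 6.26, 6.70 and 6.60 with PD-L1-depleted targets. Its difference of -0.10 (SE 0.091, 95% interval -0.307 to 0.106) was the largest of the family and had the widest interval. Gzmm read 6.81, 6.42, 6.85 and 6.81 with PD-L1-overexpressing targets, against 6.77, 6.59, 6.78 and 6.80 with PD-L1-depleted targets, and differed by -0.015 (SE 0.067). Both means lay under 6.87. In mice A to D, Gzmk differed by -0.30, 0.22, -0.056 and -0.26, and the median over the 9050 probe sets under 6.87 differed by -0.056, 0.024, -0.033 and -0.071. Whether that shared shift of dim probe sets enters the values of Gzmk was not tested.

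By limma with the mouse as a block, 0 of the 10 granzyme probe sets were called between targets (adjusted p from 0.993 to 0.999), beside 0 of all 22626 (0%). At an unadjusted p under 0.05 the counts were 0 of 10 and 854 of 22626, and the smallest unadjusted p of a granzyme was 0.14. Of the 10, 8 were lower and 2 higher, with a median of -0.013, and over all probe sets 54.1% were lower, with a median of -0.0056. For 6 of the 10 the 95% interval kept under 1.1-fold either way, as it did for 28.7% of all probe sets, and the bound farthest from no difference was 1.24-fold, for Gzmk. With 1 array per mouse and target, p-values rest on how the difference between targets varied among these 4 animals, array noise included. The block takes differences in level between animals out of the error, and variances were moderated over all probe sets.

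**Figure D1:**
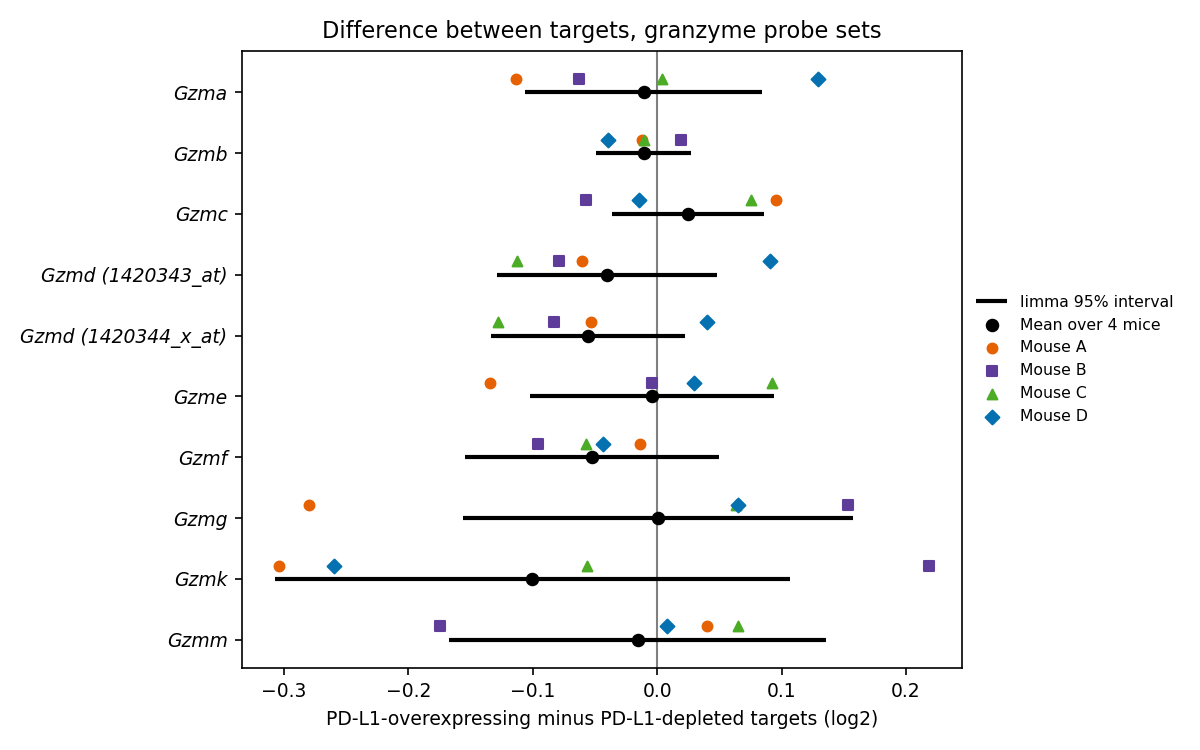
Difference between targets of each granzyme probe set (x axis, log2, PD-L1-overexpressing minus PD-L1-depleted). Black points and bars are the mean over 4 mice and its limma 95% interval, coloured symbols are single mice, and every interval includes 0.

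The count of called probe sets turned on mouse B. Without it 360 of 22626 (1.59%) passed, 328 higher and 32 lower, but 0 of the 10 granzymes were among them. At an unadjusted p under 0.05, 2 were found, Gzmk at -0.21 (SE 0.079, limma adjusted p = 0.259) and Gzmc at 0.052 (SE 0.024, limma adjusted p = 0.358). Of the 10 tumour markers above, 8 were lower with PD-L1-overexpressing targets in mouse B, 7 of them higher in each of mice A, C and D, and their part in these values was not tested.

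Set beside the difference between targets, the mice differed by far more in most members. For Gzma, Gzmd, Gzme, Gzmf and Gzmg the animal accounted for 99.8% to 99.9% of the sum of squares over the 8 arrays. The animal also took 96.9% for Gzmc and 95.1% for Gzmb, where the median over all probe sets was 63.4%. For Gzmm the share was 87.9%, and for Gzmk 57.0%, the only member under that median. Nothing is read from the distance to the median, since differences between mice chose the family. The arrays of an animal are co-cultures of the same T cells, so these shares describe 4 animals or their cultures. In such bulk samples, fewer cells that make a granzyme and less of its RNA per cell cannot be told apart.

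**Figure D2:**
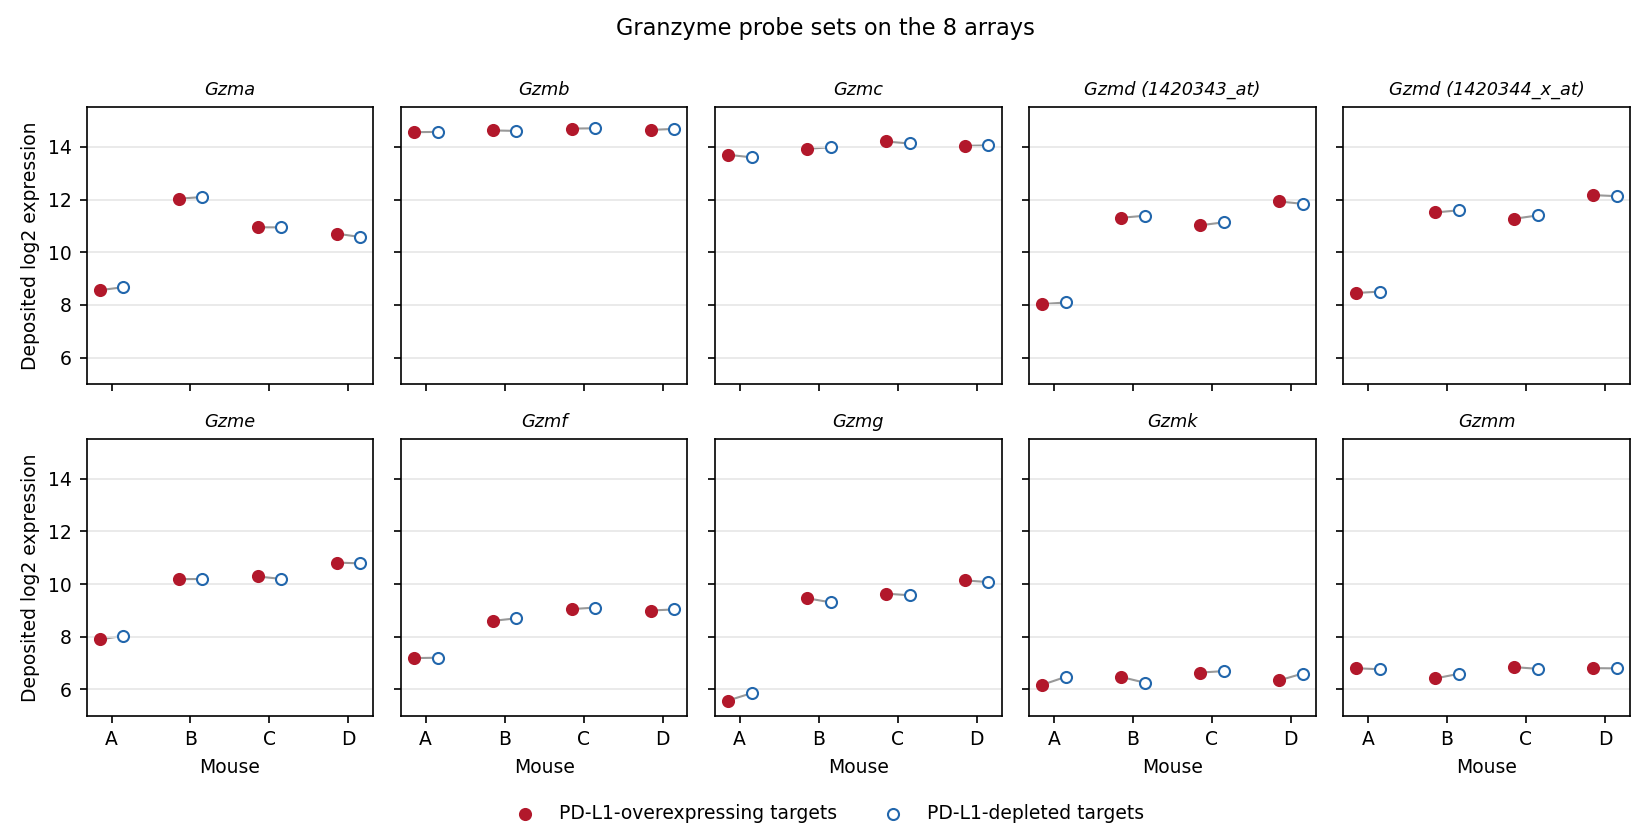
Deposited log2 expression (y axis, the same scale in each panel) of the 10 granzyme probe sets by mouse (x axis), with filled points for PD-L1-overexpressing and open points for PD-L1-depleted targets of the same mouse. The points of a mouse lie close together, and mouse A lies under the other mice in Gzma, Gzmd, Gzme, Gzmf and Gzmg.

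Mouse A held the lowest level of 8 of the 10 probe sets on both of its arrays, all but Gzmk and Gzmm. Over all probe sets 9.78% had both arrays of mouse A under the other 6, and nothing is read from that contrast, since it chose the family. Gzmg, a cluster member known from activated mouse T cells, read 5.58 in mouse A and 9.46, 9.64 and 10.14 in B, C and D with PD-L1-overexpressing targets, and 5.86 against 9.31, 9.57 and 10.07 with PD-L1-depleted targets. The mean of mouse A minus that of the others was -3.98. That difference rests on readings of Gzmg under 6.87 in mouse A, where the scale may be compressed, so its size is uncertain and no fold is given.

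Gzmd, its neighbour, read 8.03 in mouse A and 11.31, 11.02 and 11.93 in B, C and D with PD-L1-overexpressing targets on one probe set, and 8.09 against 11.39, 11.13 and 11.84 with PD-L1-depleted targets. On the other probe set it read 8.45 against 11.51, 11.27 and 12.17 with PD-L1-overexpressing targets, and 8.51 against 11.59, 11.40 and 12.13 with PD-L1-depleted targets. Both probe sets of the gene gave the same order of mice, with mouse A at -3.37 and -3.20 from the others, or 10.4-fold and 9.17-fold lower. The root mean square difference between the centred values of these probe sets over the 8 arrays was 0.081.

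Gzme read 7.90 in mouse A and 10.19, 10.29 and 10.81 in B, C and D with PD-L1-overexpressing targets, and 8.03 against 10.19, 10.20 and 10.78 with PD-L1-depleted targets, which put mouse A at -2.44 from the others. The probe set annotated to both Gzme and Gzmd stood at -3.04 in mouse A and differed between targets by -0.0062 (SE 0.068). Gzmf read 7.19 in mouse A and 8.60, 9.05 and 8.99 in B, C and D with PD-L1-overexpressing targets, and 7.20 against 8.70, 9.11 and 9.04 with PD-L1-depleted targets, which put mouse A at -1.72. Gzmd, Gzme, Gzmf and Gzmg are close relatives in sequence, and the names of a Gzmd and of the Gzme probe set end in _x_at, the maker's mark for probes that may also match other transcripts. How much of each reading comes from a relative was not tested.

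Gzma, on another chromosome, stood at -2.60 in mouse A, or 6.06-fold lower. Gzmc and Gzmb stood at -0.41 and -0.096, or 1.32-fold and 1.07-fold lower, near the top of the scale. Gzmk differed by -0.18 and Gzmm by 0.077, and their arrays overlapped between mice. Neither size was steady, as Gzmk differed by -0.31 on the PD-L1-overexpressing arrays alone and by -0.040 on the PD-L1-depleted arrays alone, and Gzmm changed sign to -0.024 without mouse B. The mean of the CD8 T cell markers was 12.31 in mouse A and 12.45, 12.44 and 12.47 in B, C and D. The tumour marker mean was 7.49 in mouse A and 7.78, 7.96 and 7.82 in B, C and D. The part of either in the granzyme values was not tested.

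Mice B, C and D also stood apart from each other, and not in 1 order. The arrays of every mouse were clear of those of the next in 8 of the 10 probe sets, against 5.77% of all probe sets, again in the contrast that chose the family. Gzma was highest in mouse B and then C and D, with a range of 1.42 among these mice, while its largest difference between targets in any mouse was 0.13. Gzmd, Gzme and Gzmg were highest in mouse D, with ranges among B, C and D of 0.80 to 0.81, 0.61 and 0.72. Gzmf, Gzmc and Gzmb were highest in mouse C and lowest of these in B, with ranges of 0.43, 0.21 and 0.085. Gzma and Gzmd therefore put mice B, C and D in unlike orders, though both were lowest in mouse A.

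On chromosome 14 the RefSeq table, assembly GRCm38.p6, gives the cluster in the order Gzme, Gzmd, Gzmg, Gzmn, Gzmf, Gzmc and Gzmb. In that order the differences of mouse A from the others were -2.44, -3.20, -3.98, -0.018, -1.72, -0.41 and -0.096, with Gzmd by its higher probe set. These values come from different probes, with Gzmg under 6.87 in mouse A and Gzmc and Gzmb near the top of the scale, so their sizes were not ranked along the cluster. Gzmn, known from testis, had a mean of 5.03, low on these arrays, and is no member. Members at the Gzme end were highest in mouse D, and those at the Gzmb end in mouse C. Outside the family the nearest genes with a probe set were Ctsg and Atp12a. Ctsg, the neutrophil protease cathepsin G, beside Gzme, differed by -0.30 in mouse A with a mean of 6.97. Atp12a, an ion pump gene beside Gzmb, differed by -0.12 with a mean of 4.89. Around the other loci, Gpx8 beside Gzma differed by -0.33 with a mean of 5.38, and Esm1 beside Gzmk by -0.027 with a mean of 4.06. Cdc34 and Bsg beside Gzmm differed by 0.14 and 0.017. Probe sets as dim as those of Atp12a, Gpx8 and Esm1 could hardly show a drop in mouse A.

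**Figure D3:**
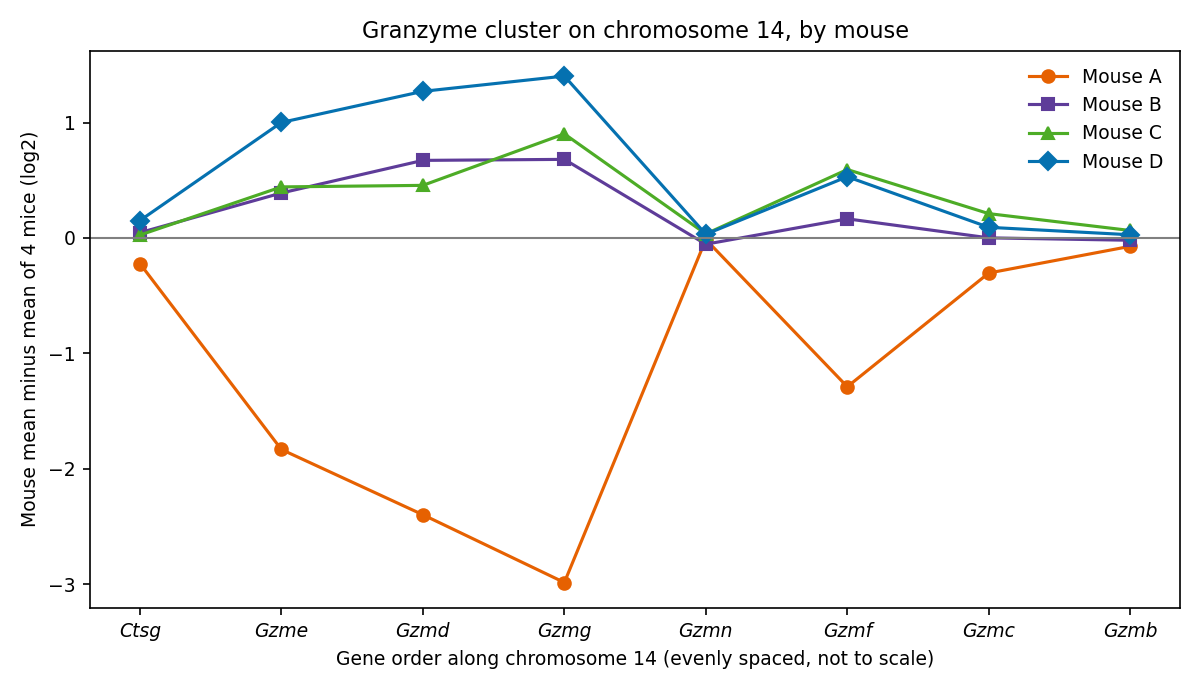
Mean of each mouse minus the mean of the 4 mice (y axis, log2) for Ctsg and the chromosome 14 granzymes in gene order (x axis, not to scale), with 1 line per mouse. Mouse A lies under the others from Gzme to Gzmg and at Gzmf, and the lines draw together at Gzmn, which had a low reading, and towards Gzmb.

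Since 5 of the cluster genes share much of their upstream sequence, the bases before their starts are shown. Each window holds the 250 bases before a RefSeq start, 5′ to 3′ on the gene's strand, from the GRCm38.p6 table. Capitals mark motifs searched on both strands. That of AP-1 is spelled TGANTCA. RUNX factors bind TGTGGT. The STAT motif is TTCNNNGAA. For the TATA box the letters are TATAAA. The cyclic AMP response element reads TGACGTCA. All windows lie on the minus strand, that of Gzmg at chr14:56159580-56159829, Gzmd at chr14:56132594-56132843, Gzmf at chr14:56211408-56211657, Gzmc at chr14:56234658-56234907, Gzmb at chr14:56262335-56262584 and Gzma at chr13:113100982-113101231.
Gzmg: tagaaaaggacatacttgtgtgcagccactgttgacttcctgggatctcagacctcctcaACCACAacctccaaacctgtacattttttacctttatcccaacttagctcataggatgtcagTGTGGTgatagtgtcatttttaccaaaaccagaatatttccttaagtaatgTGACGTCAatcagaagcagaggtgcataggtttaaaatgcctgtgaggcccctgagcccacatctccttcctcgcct
Gzmd: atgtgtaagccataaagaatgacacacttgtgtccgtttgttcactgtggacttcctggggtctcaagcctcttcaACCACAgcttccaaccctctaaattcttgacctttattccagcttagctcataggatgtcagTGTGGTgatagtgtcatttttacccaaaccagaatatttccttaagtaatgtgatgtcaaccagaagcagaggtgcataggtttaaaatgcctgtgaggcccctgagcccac
Gzmf: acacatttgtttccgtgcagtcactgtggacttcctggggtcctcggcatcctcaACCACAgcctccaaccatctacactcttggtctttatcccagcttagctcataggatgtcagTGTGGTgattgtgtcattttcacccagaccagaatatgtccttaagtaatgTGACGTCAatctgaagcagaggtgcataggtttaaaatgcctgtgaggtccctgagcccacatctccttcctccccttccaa
Gzmc: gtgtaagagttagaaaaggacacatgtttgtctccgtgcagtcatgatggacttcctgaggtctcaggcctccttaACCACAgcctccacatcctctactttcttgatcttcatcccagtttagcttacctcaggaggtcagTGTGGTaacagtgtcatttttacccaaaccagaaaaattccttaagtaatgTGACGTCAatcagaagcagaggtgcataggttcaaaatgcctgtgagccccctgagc
Gzmb: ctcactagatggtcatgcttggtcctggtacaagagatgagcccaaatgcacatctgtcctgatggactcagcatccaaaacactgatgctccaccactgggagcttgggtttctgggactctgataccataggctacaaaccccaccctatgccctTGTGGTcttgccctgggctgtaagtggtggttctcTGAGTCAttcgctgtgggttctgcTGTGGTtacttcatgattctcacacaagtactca
Gzma: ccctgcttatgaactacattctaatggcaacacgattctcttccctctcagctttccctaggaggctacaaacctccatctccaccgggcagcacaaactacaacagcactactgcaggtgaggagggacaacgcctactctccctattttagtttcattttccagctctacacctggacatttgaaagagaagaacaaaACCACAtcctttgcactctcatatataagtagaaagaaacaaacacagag

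Gzmd and Gzme, whose window is left out for that reason, were 95.2% identical over the window by global alignment. Among Gzmc, Gzmd, Gzme, Gzmf and Gzmg the other pairs shared 77.2% to 85.2%, while Gzmb and Gzma reached at most 54.4% with any granzyme, the value of the pair Gzmb and Gzmn. In Gzmd, Gzme, Gzmf and Gzmg a pair of RUNX motifs lay 62 bases apart from start to start, and in Gzmc 66. In these genes the farther motif reads ACCACA, on the other strand, and the nearer TGTGGT. Gzmb had 2 motifs 59 bases apart, but both read TGTGGT, at 93 and 34 bases before the start. The RUNX motif was in 8 of the 10 RefSeq windows of the 9 members and in 14.05% of all 32851 windows. The windows of Gzmc, Gzmd, Gzme, Gzmf and Gzmg, which share much of their sequence, are among them. Their motifs are therefore not separate occurrences, and nothing is read from the count. RUNX factors, Runx3 above all, are known regulators of cytotoxic genes. The cyclic AMP motif was in the windows of Gzmc, Gzmf and Gzmg, again windows of like sequence, and in 1.55% of all windows. The AP-1 motif was in that of Gzmb and in 6.75% of all. The STAT motif was in 1 Gzmm window and in 7.02% of all. The exact letters TATAAA were in 0 of the 10 and 12.4% of all. Other spellings of a TATA box were not searched, so windows without these letters may still hold one. No 2 matches overlapped. Whether any of these letters bears on the differences between mice was not tested.

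Genes of like pattern were ranked by the root mean square difference from a granzyme, over the 8 arrays, of values centred on each probe set's mean. Granzymes were left out of this ranking, as were probe sets with several symbols, no symbol or a mean under 6.87. For Gzmd, by its higher probe set and with a spread of 1.42, the nearest gene outside the family was S100a4 at 0.24. It encodes a calcium-binding protein of effector and memory cells. Ifitm1 followed at 0.65, S100a6 at 0.72 and Fcer1g at 0.73. Within the family, Gzme and Gzmg lay at 0.35 and 0.39 from that Gzmd probe set, nearer than Ifitm1. S100a4 read 8.59 in mouse A and 11.64, 11.66 and 11.86 in B, C and D with PD-L1-overexpressing targets, and 8.55 against 11.58, 11.65 and 11.77 with PD-L1-depleted targets. For Gzma, with a spread of 1.24, the nearest ranked genes were Fcer1g at 0.61, S100a4 at 0.64, Ifitm1 at 0.65 and Trgv4 at 0.67. No ranked gene came nearer to Gzma than 0.61, against 0.24 for Gzmd. Fcer1g, a signalling adaptor of Fc and NK receptors, averaged 7.33 in mouse A and 9.30, 8.53 and 9.11 in B, C and D. Gzmb and Gzmk, whose spreads were 0.053 and 0.18, had nearest genes at 0.015 (Abhd17a) and 0.047 (F2rl2). Values were not scaled, so any probe set that varies little lies near a granzyme of small spread. These distances are therefore not a closer likeness than those of Gzmd or Gzma.

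The genes that load, release, restrain and answer to granzymes were set beside the family, each by its probe set with the highest mean. Between targets 0 of these 59 genes passed over all probe sets (limma adjusted p of at least 0.993). Genes of processing and storage had 5 of 9 higher with PD-L1-overexpressing targets, those of granule secretion 4 of 8, inhibitors 2 of 5, substrates and death executors 6 of 10, regulators 8 of 18 and serine protease neighbours 3 of 9. Their medians were 0.00067, 0.00074, -0.0018, 0.011, -0.0068 and -0.062, beside -0.0056 over all probe sets. Of the last list 8 of 9 lay under 6.87. The smallest p in these lists were those of Serpinb6a, an intracellular serpin, at 0.050 (SE 0.023) and higher in 4 of 4 mice, and of Runx3 at -0.10 (SE 0.047) and lower in 4 of 4.

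By mouse, the lists are set out for mouse A against the others, as a description. Over all probe sets 14.5% lay higher on both arrays of mouse A than on all 6 others. Of processing and storage genes 1 of 9 lay under the others in mouse A and 2 above. Prf1, the pore former that granzymes need, differed by -0.32, Cst7, an inhibitor of the activating cathepsins, by -0.20, and Ctsc, the cathepsin that activates granzymes, by 0.18. Of secretion genes 3 of 8 lay under and 1 above, with Rab27a, which docks granules at the membrane, at -0.51, the granule membrane gene Nkg7 at -0.31 and Ap3b1 at 0.16. Among inhibitors 2 of 5 lay under and 2 above, with Serpinb1a at -0.76 and a mean under 6.87, and Serpinb9b, a relative of the granzyme B inhibitor Serpinb9, at 0.39.

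Of the substrates and death executors 0 of 10 lay under the others in mouse A and 1 above, with Gsdme, the pore-forming protein that granzyme B can cleave, at 0.29, Bid, a death-signal substrate of granzyme B, at 0.16, and Hmgb2, a granzyme A substrate, at -0.15. Regulators went both ways, 6 of 18 under and 9 above. Id2, a transcriptional regulator of effector cells, differed by -0.51, while Stat5a, which carries the signal of interleukin 2, and Notch1 differed by 0.42 and 0.39. Of the serine protease neighbours 2 of 9 lay under and 0 above, Ctsg at -0.30 and Mcpt4 at -0.20, the latter with a low mean of 5.71.

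**Figure D4:**
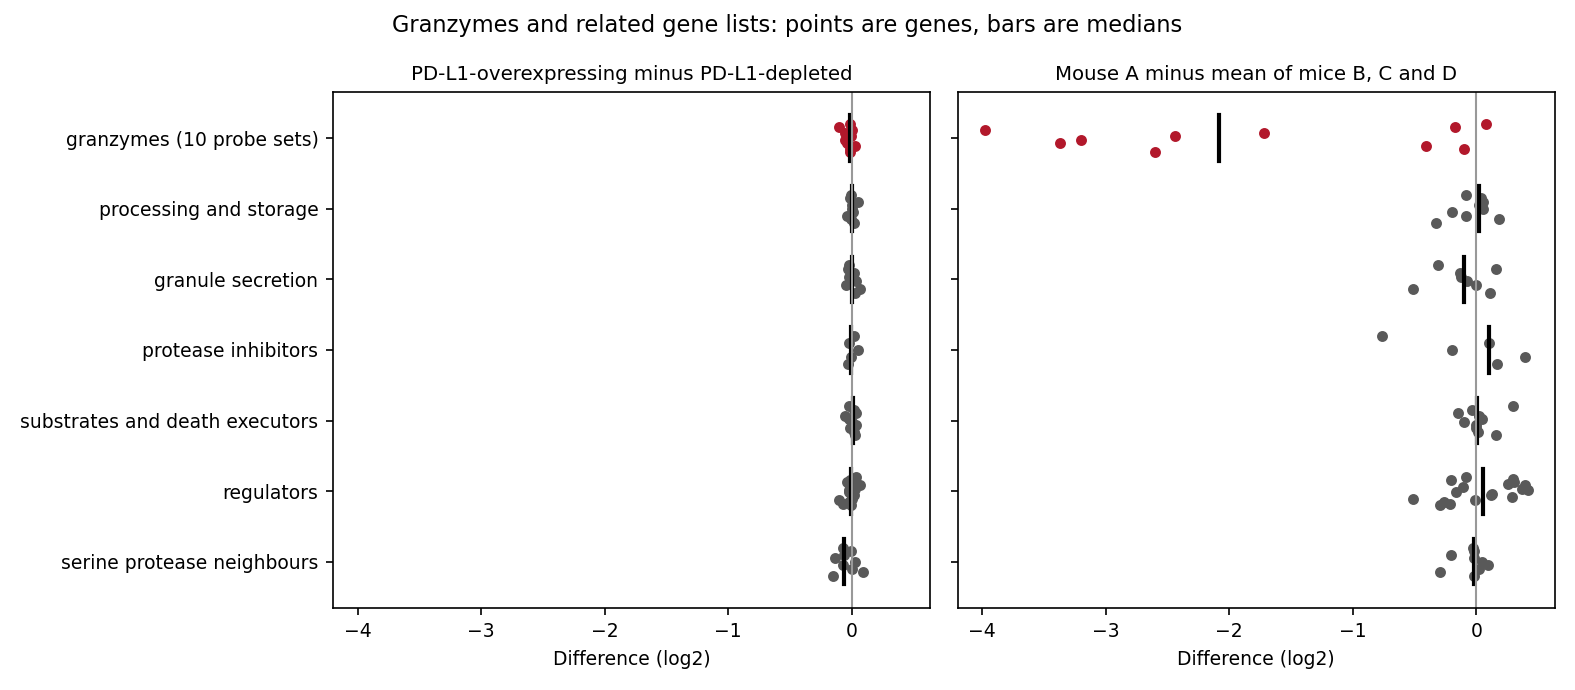
Differences (x axes, log2) between targets (left) and of mouse A from the mean of the other mice (right) for the 10 granzyme probe sets and for the genes of 6 related lists, with 1 point per probe set or gene and bars at the medians. Both panels have the same scale, and only granzyme points lie under -1 in the right panel, in the contrast that chose the family.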

How the data were processed

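RNA of 8 samples was measured on 3' expression arrays, 1 per sample, from T cells of 4 mice with 2 kinds of target. For every probe set and array the authors deposited 1 log2 value, a scale inferred from the range (3.60 to 15.24). The summary of probes and the normalisation were not given in the sources used here. Ranked from low to high, arrays differed by at most 0.167 at any rank, so a shift common to most genes may not show. No depth applies: the number of arrays limits the precision. Of 22690 probe sets 64 controls were left out. Of the rest 20380 had 1 symbol in the platform annotation, 691 several and 1555 none. The table held 0 columns of other samples.

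All 22626 probe sets entered 1 limma fit (version 3.58.1, R 4.3.3), with mouse as a fixed block and variances moderated along a trend. Tests were two-sided, and a call needed a Benjamini-Hochberg adjusted p under 0.05. The steps were tested on simulated data. Arrays were paired because, per the series design, each mouse gave cells to both targets. Deviations from the group means correlated within mice A, B, C and D at 0.69, 0.091, 0.48 and 0.44 across probe sets. Promoter windows were aligned with Biopython 1.88. Named were every member, up to 3 genes of each list that differed most in mouse A and up to 2 with the smallest p between targets, 4 genes of like pattern, and the nearest neighbours. Members and lists were chosen with earlier results of these data known. Alternatives were no block or a random block, quantile normalisation, median centring, a filter at the 40th percentile, 1 probe set per gene, other variance settings, and leaving out each mouse.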

Additional observations from a re-analysis of the deposited data

Results flagged for a closer look

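For each probe set and kind of target, the lowest or highest array was set against the rest by its gap to the nearest array, as a share of the range of all 4. Of 20 such groups of granzyme values, 3 had an array beyond Dixon's 95% critical value, where chance gives about 1 in 20 of independent groups. These groups share mice and the family was chosen on values by mouse, so nothing is read from that count. Gzmg was lowest in mouse A with PD-L1-overexpressing targets (0.851), at 5.58, a reading under 6.87. Gzmm was lowest in mouse B with both kinds of target, PD-L1-overexpressing (0.901) and PD-L1-depleted (0.831), at 6.42 and 6.59. Both Gzmm readings come from a probe set whose mean lies under 6.87. The arrays of Gzma, Gzmd, Gzme and Gzmf in mouse A did not pass this measure, nor did that of Gzmg with PD-L1-depleted targets. In those groups the spread of mice B, C and D took a larger share of the range.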

How the results depend on the processing

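No granzyme was called between targets under any of the 12 alternatives run, including the fit without the replicate block (0 of 10). Without the block, differences between mice enter the error. The SE then rose from 0.069 to 1.09 for Gzmg and from 0.042 to 0.78 for Gzma, but only from 0.091 to 0.12 for Gzmk. With mouse as a random block it was 0.67, 0.48 and 0.092. For members that differ much between mice, these fits could hardly call a difference, so nothing is read from their counts. The lowest limma adjusted p was 0.259 without mouse B and 0.962 under the other alternatives. Over all probe sets the count stayed at 0 except without mouse B, where it was 360, and 1 substrate gene, Hmgb2 (0.12, limma adjusted p = 0.0420), was among these. Leaving out each mouse in turn gave counts over all probe sets of 0 to 360 and in the substrate list of 0 to 1. Of 117 granzyme values under an alternative, 9 changed sign, all within 1 SE of 0. Gzme was 0.0040 with median centring and Gzmm 0.011 with quantile normalisation. Leaving out each mouse gave -0.057 to 0.023 for Gzma, -0.036 to 0.039 for Gzme, -0.050 to 0.094 for Gzmg and -0.042 to 0.038 for Gzmm. The cause was not tested beyond the smaller number of mice. Gzmk and Gzmm drop out under the filter. In the differences of mouse A from the others, 0 of 70 values moved by as much as the SD between mice B, C and D. Values without mouse B, C or D cannot move that far, since the mice kept also set the SD, so that count does not test them. Of the 70, 1 changed sign, Gzmm at -0.024 without mouse B, against 0.077. Only 4 animals, and readings near both ends of the scale for Gzmb, Gzmc, Gzmk, Gzmm and Gzmg, limit these values.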
